A study of Mus musculus with 11 samples.

Results

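Ntrk2, the mouse gene of the neurotrophin receptor TrkB, was examined in CUT&RUN peak lists of 2 transcription factors (TFs), Runx3 and Brn3a. All peaks whose centre lay in the regulatory domain of the gene were taken, and these were 54 of the 58772 peaks deposited, namely 28 of 25885 in the Runx3 list and 26 of 32887 in the Brn3a list. The regulatory domain ran from 5 kb upstream to 1 kb downstream of the transcription start site (TSS) and was extended on both sides to the same window of the next protein-coding gene, by at most 1 Mb. The domain was drawn from the gene annotation alone.

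The cells came from dorsal root ganglia (DRG) of E12.5 embryos of Runx3-BAC-GFP-CB6 transgenic mice and were sorted for green fluorescent protein (GFP), and the labels call them TrkC proprioceptive neurons. In this reporter a bacterial artificial chromosome (BAC) with Runx3 sequence drives GFP, every library came from embryos that carry it, and any cell in which the reporter is active enters the sort. CUT&RUN, in which an antibody directs a nuclease to its target in permeabilized cells, was done with a home made Runx3 antibody (3 libraries), with Brn3a (4 libraries) and H3K27Ac (3 libraries) antibodies and with normal rabbit serum (1 library). The deposited lists hold consensus positions found in at least 2 libraries, with no height, no p-value and no value per library, so that no spread between libraries can be given and the read depth is unknown. The table deposited for H3K27Ac was identical to the Runx3 table and was not used. Its column of RUNX sites is why the shared table was taken as the Runx3 list, and from its positions alone the antibody behind it cannot be told. RNA was not measured, so neither the cell type nor the level of Ntrk2 could be checked against these data.

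TrkB is the receptor tyrosine kinase for BDNF and neurotrophin-4, and in the DRG it marks classes of cutaneous low-threshold mechanoreceptors. TrkC, the product of Ntrk3 and the receptor for neurotrophin-3, marks the neurons that become proprioceptors, the sensors of muscle stretch. Early DRG neurons can carry both receptors, and Runx3, a TF of the RUNX family, is known to repress Ntrk2 as TrkC neurons are set apart, with an intronic element that holds a cluster of RUNX sites described in the gene. Brn3a, a POU-homeodomain TF encoded by Pou4f1, is present in most sensory neurons and is known to act on the Trk receptor genes.

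Ntrk2 (ENSMUSG00000055254.15) lies on the plus strand of chromosome 13 in the GRCm38 (mm10) genome, at chr13:58806569-59133970. Its domain spanned 964 kb, chr13:58615878-59580258. It was bounded by Slc28a3, a nucleoside transporter gene with its TSS at -196 kb, and by the neighbours Agtpbp1, a gene of a tubulin deglutamylase, and Naa35, a gene of an N-terminal acetyltransferase subunit, with their TSS at +779 kb. All distances are from the Ntrk2 TSS to the centre of a peak, and minus marks upstream.

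The sequences on which the locus turned are shown with the words that were searched for in capitals. A RUNX binding site (RBS) is the word TGTGGT or TGTGGC, or the like word TGCGGT or TGCGGC, on either strand, since the deposited RBS number equalled the number of these words in 25883 of 25883 nuclear Runx3-list peaks. The Brn3 word is TTAATGA on either strand. Where a word is on the minus strand its reverse complement is in capitals. The promoter, chr13:58806319-58806618 in RefSeq (GRCm38.p6), is shown because its only peak was of the Runx3 list.
Ntrk2 promoter: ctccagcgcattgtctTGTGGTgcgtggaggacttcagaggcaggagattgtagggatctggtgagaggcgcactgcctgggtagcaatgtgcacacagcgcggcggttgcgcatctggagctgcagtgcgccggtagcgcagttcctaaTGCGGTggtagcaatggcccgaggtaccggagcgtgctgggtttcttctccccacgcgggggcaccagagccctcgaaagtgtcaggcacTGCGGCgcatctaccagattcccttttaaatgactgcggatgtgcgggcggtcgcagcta
The intronic Runx3-list peaks with 3 or more RBS are shown because they held the most RBS of the Runx3-list peaks in the gene. The gene outside its peaks was not searched. The peak at +39.0 kb, in intron 5, is given over chr13:58845468-58845767, which holds its 4 RBS, and the peak at +309.6 kb, in intron 16, is given whole, chr13:59116056-59116239.
Intron 5, +39.0 kb: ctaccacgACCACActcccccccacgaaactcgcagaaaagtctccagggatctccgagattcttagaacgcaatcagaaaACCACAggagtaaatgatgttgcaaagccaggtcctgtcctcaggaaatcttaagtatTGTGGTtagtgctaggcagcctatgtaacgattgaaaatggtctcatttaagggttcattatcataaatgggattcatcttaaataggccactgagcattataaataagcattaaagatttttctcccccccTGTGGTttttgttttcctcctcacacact
Intron 16, +309.6 kb: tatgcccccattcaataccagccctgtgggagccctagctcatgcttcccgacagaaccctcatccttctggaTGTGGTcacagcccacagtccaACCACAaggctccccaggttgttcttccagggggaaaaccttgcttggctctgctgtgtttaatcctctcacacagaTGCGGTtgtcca
The regions found in both lists that hold RUNX and Brn3 words are shown as windows of 300 bases, at chr13:58677532-58677831, chr13:58959699-58959998, chr13:59092781-59093080 and chr13:59287574-59287873.
Upstream, -128.8 kb: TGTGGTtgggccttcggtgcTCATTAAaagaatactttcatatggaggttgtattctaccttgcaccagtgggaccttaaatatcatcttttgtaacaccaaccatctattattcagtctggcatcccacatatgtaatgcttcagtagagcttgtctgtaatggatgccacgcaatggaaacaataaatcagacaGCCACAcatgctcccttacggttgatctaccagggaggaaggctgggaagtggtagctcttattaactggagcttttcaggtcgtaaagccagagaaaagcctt
Intron 12, +153.3 kb: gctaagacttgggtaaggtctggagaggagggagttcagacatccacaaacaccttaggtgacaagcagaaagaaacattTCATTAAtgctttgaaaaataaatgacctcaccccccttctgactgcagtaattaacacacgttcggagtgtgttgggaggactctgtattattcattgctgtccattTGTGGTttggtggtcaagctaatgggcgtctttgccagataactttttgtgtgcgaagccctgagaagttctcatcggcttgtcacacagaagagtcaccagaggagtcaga
Intron 16, +286.3 kb: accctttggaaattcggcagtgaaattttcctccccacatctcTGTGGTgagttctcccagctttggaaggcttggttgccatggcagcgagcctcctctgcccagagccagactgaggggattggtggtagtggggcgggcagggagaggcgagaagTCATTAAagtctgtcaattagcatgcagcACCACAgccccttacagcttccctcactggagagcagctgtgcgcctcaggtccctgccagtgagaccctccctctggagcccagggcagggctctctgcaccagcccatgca
Downstream, +481.0 kb: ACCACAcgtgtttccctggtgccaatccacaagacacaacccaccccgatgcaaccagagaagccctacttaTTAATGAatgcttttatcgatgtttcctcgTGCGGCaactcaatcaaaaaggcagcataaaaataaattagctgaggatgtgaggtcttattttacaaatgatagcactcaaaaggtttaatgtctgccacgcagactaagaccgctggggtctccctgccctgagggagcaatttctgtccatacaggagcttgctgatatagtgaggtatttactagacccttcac

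Peaks of both lists were spread over the whole neighbourhood of Ntrk2 and did not gather at its promoter. Of the 28 Runx3-list peaks, 9 lay upstream of the TSS, 9 in the gene body and 10 downstream of the gene. Of the 26 Brn3a-list peaks, 10 lay upstream, 8 in the gene body and 8 downstream. Per 100 kb of the domain there were 2.90 Runx3-list and 2.70 Brn3a-list peaks, against 0.95 and 1.21 per 100 kb of the whole genome. The density was highest upstream, with 4.72 Runx3-list and 5.24 Brn3a-list peaks per 100 kb over 190.7 kb. In the gene body it was 2.75 and 2.44 per 100 kb over 327.4 kb, and downstream 2.24 and 1.79 per 100 kb over 446.3 kb. Neighbouring Runx3-list peaks were a median of 23.2 kb apart, and neighbouring Brn3a-list peaks 23.6 kb.

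**Figure D1:**
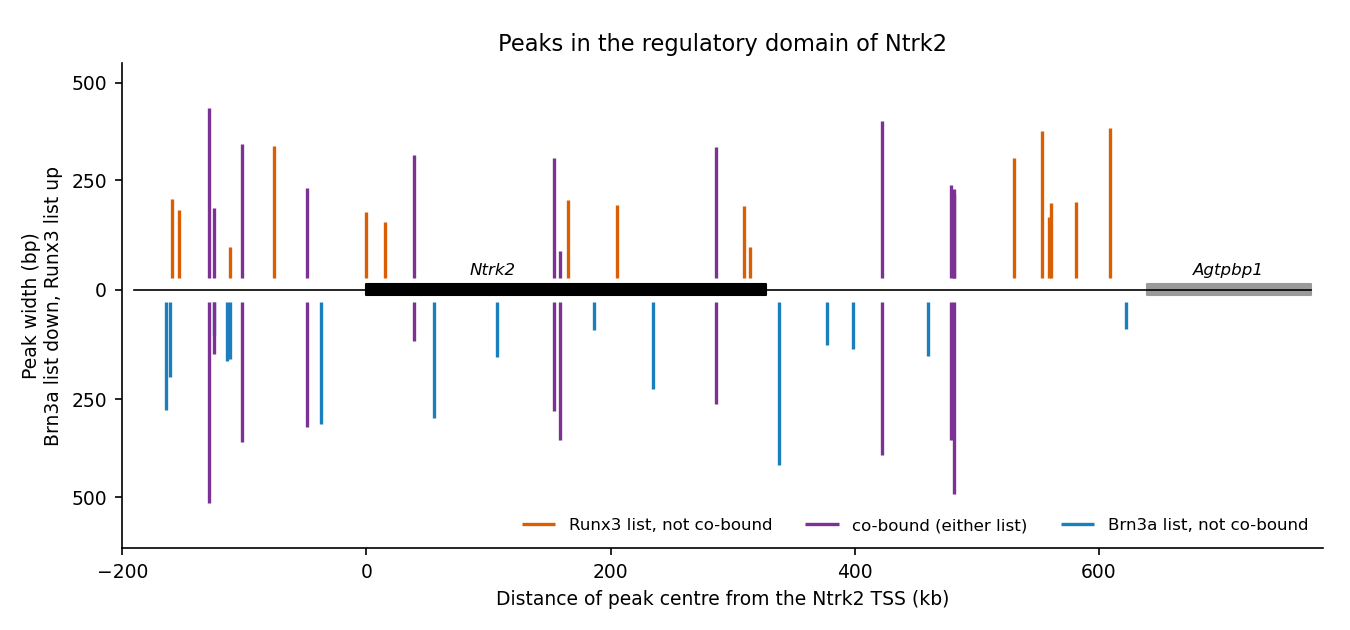
Each line is a peak, placed by the distance of its centre from the Ntrk2 TSS in kb, with its length giving the peak width in bp, upwards for the Runx3 list and downwards for the Brn3a list. Purple lines are the 12 Runx3-list and 11 Brn3a-list peaks that overlap each other, the black bar is Ntrk2, and the 6 Runx3-list peaks from +530.3 to +609.4 kb stand without a Brn3a-list peak.

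A large domain assigns distant peaks to the gene, and many of these peaks are shared with its neighbours. Of the Runx3-list peaks, 8 also lay in the domain of Slc28a3 and 19 in that of Agtpbp1, and of the Brn3a-list peaks 10 and 16. The Ntrk2 TSS was the nearest protein-coding TSS of 12 Runx3-list peaks, against 10 nearest to Agtpbp1 and 6 nearest to Slc28a3. For the Brn3a list the Ntrk2 TSS was the nearest of 12 peaks, against 6 nearest to Agtpbp1 and 8 nearest to Slc28a3. No peak of either list lay in the stretch of the Agtpbp1 gene body that the domain takes in.

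The promoter held a Runx3-list peak and no Brn3a-list peak. A promoter is here the DNA within 1 kb of a TSS of a protein-coding transcript. The peak, chr13:58806406-58806573, was 168 bp wide with its centre 80 bp upstream of the TSS, and it took in the TSS itself. It had 2 RBS, a TGCGGT and a TGCGGC, which are at positions 151 and 241 of the promoter shown above. The third word of that sequence, TGTGGT at position 17, lay outside the peak. With a GC content of 64.9% and 16 CpG it was the most GC-rich and CpG-rich of the 28 Runx3-list peaks, whose median GC content was 48.8% and median CpG number 4. At least 3 RUNX words were found in 2.72% of 32851 RefSeq promoters of the same length, and at least 1 in 45.2%. The promoter held no TTAATGA, which 3.23% of those promoters hold. Of protein-coding genes, 36% had a promoter with a peak of the Runx3 list. No Brn3a-list peak was found in an Ntrk2 promoter, 0 of 26 (Wilson 95% interval 0% to 12.9%), and 1 of 28 Runx3-list peaks was, 3.6%. Over the lists, 14.3% of Brn3a-list and 32.9% of Runx3-list peaks lay in a promoter of any protein-coding gene. The domain stops short of the start windows of the neighbouring genes. Low promoter shares thus follow from how it was drawn, and no depletion can be read from them.

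All 9 Runx3-list and all 8 Brn3a-list peaks within the gene body had their centres in introns of the full-length transcript that starts farthest upstream, which has 18 exons and 821 codons. The Runx3-list peaks lay in intron 2 (1 peak), intron 5 (1), intron 12 (3), intron 13 (1) and intron 16 (3). The Brn3a-list peaks lay in intron 5 (1), intron 9 (1), intron 12 (3), intron 13 (1), intron 14 (1) and intron 16 (1). Introns 12, 13 and 16 are the longest of these, with 107.5, 52.0 and 66.0 kb. Ntrk2 also makes a truncated receptor that lacks the kinase domain, and the annotated transcripts of 476 codons end early, the last at 58937027. The gene body up to that end held 2 Runx3-list and 3 Brn3a-list peaks over 130.5 kb. The rest of the gene body held 7 Runx3-list and 5 Brn3a-list peaks over 196.9 kb.

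Among the intronic peaks, the one at +39.0 kb held the most RBS. This Runx3-list peak, chr13:58845461-58845775 in intron 5, was 315 bp wide and held 4 RBS, the highest number of the 28 peaks. All 4 were TGTGGT, at positions 9 and 82 on the minus strand and 140 and 272 on the plus strand of the sequence shown. A Brn3a-list peak of 101 bp, chr13:58845605-58845705, lay wholly inside it and had no V$BRNF, the Brn-family motif that the deposited Brn3a table marks as present or absent. Peaks with 4 or more RBS made up 1 of the 28 Runx3-list peaks of Ntrk2, 3.6%, and 3.21% of all distal Runx3-list peaks, where distal means outside promoters. Having 1 such peak is thus close to the share of the list. The next highest number was 3 RBS, in the peak at +309.6 kb (chr13:59116056-59116239) in intron 16 and in the peak at +553.6 kb (chr13:59360025-59360400) downstream of the gene. Neither overlapped a Brn3a-list peak. At +309.6 kb TGTGGT was found 2 times and TGCGGT once within 184 bp.

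RBS were carried by most Runx3-list peaks of Ntrk2. They were found in 24 of 28 peaks, 85.7% (Wilson 95% interval 68.5% to 94.3%, which covers the counting of peaks only), against 61.3% of the whole list. Promoter peaks carry RBS less often, so the distal peaks were set side by side, with 23 of 27, 85.2% (67.5% to 94.1%), at Ntrk2 and 65.2% of 17369 in the list. By part of the locus, an RBS was present in 9 of 9 peaks upstream, 6 of 9 in the gene body and 9 of 10 downstream. The gene-body share, 66.7%, was near that of the distal list. Of the 28 peaks, 4 had no RBS, 9 had 1, 12 had 2, 2 had 3 and 1 had 4. At least 2 RBS were present in 14 of the 27 distal peaks, 51.9% (34% to 69.3%), against 29.7% of all distal Runx3-list peaks. The peaks of Ntrk2 were also wider, with a median of 208 bp (69 to 434 bp), against 165 bp for all distal peaks of the list. Among distal peaks wider than the list median of 176 bp, an RBS was present in 18 of 21, 85.7% (65.4% to 95%), at Ntrk2 and in 77.9% of 7873 in the list. At least 2 RBS were present in 13 of these 21, 61.9%, and in 43.5% of the 7873. Per kb of distal peak there were 6.32 RUNX words at Ntrk2 and 5.78 in the list. No test was run on these shares, since neighbouring peaks of a locus are not independent samples.

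The most frequent RUNX word at Ntrk2 was TGTGGT. It accounted for 30 of the 43 RUNX words in the 28 peaks, 69.8%, against 54.8% of 19265 words in all distal Runx3-list peaks, and it was present in 20 of the 28 peaks. TGTGGC occurred 6 times, TGCGGT 5 times and TGCGGC 2 times. The RBS nearest to the centre of a peak lay a median of 19.2 bp from it at Ntrk2, in the 24 peaks with an RBS, and 24 bp from it in all distal Runx3-list peaks. The 4 peaks without an RBS were neighbours in part. Those at +158.3, +165.0 and +205.1 kb, in introns 12 and 13, followed each other along the gene, and the fourth lay at +479.2 kb.

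**Figure D2:**
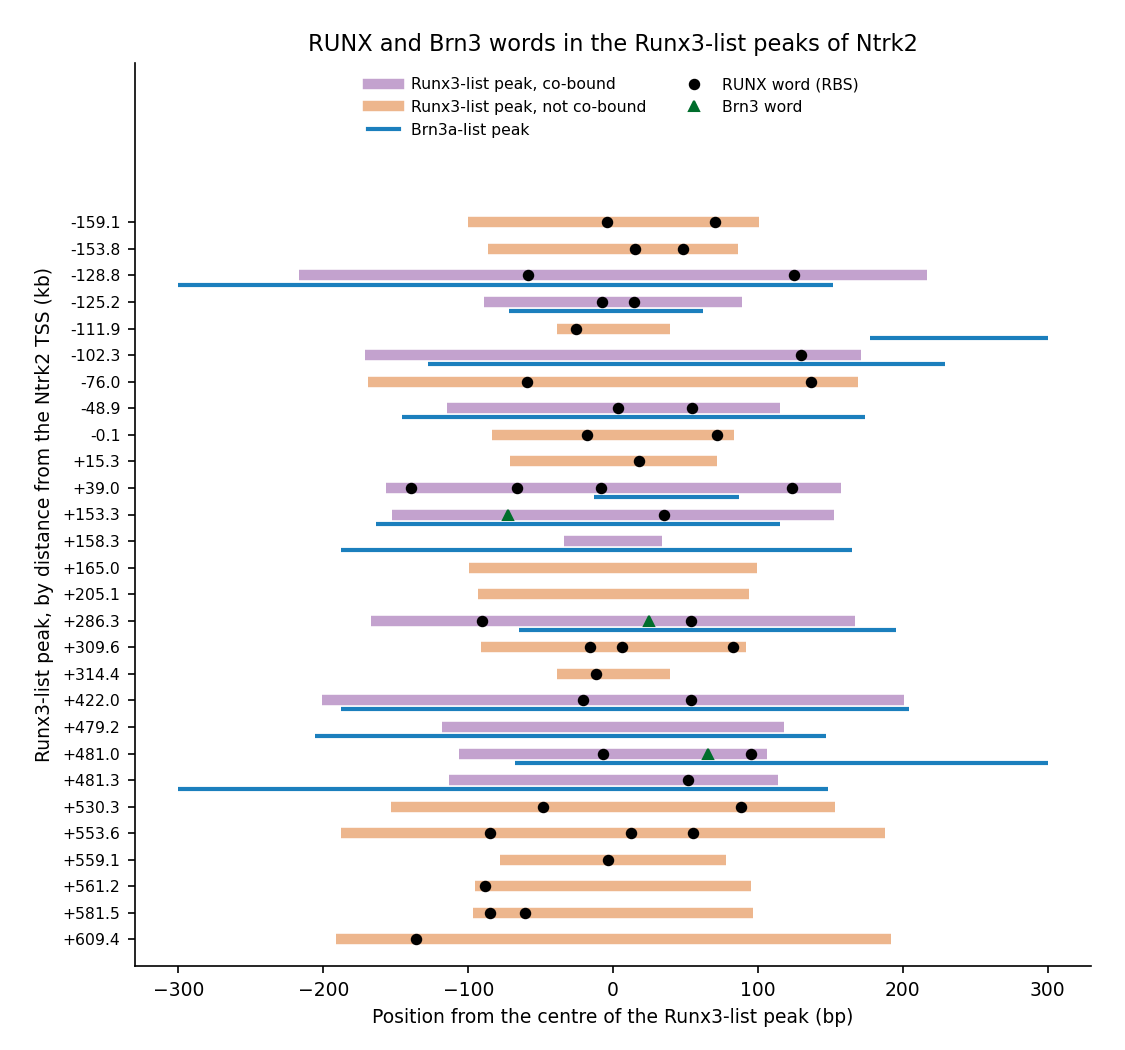
Each row is a Runx3-list peak of Ntrk2, ordered by its distance from the TSS in kb, drawn to scale in bp from its centre, purple where a Brn3a-list peak overlaps it and orange where none does. Dots are RUNX words and triangles Brn3 words within the Runx3-list peak, blue lines are Brn3a-list peaks (ended at 300 bp from the centre), and the row at +39.0 kb holds 4 dots.

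The Runx3-list and Brn3a-list peaks overlapped at 11 regions of the locus. Peaks are called co-bound when they share at least 1 bp. By this measure 12 of 28 Runx3-list peaks, 42.9% (26.5% to 60.9%), and 11 of 26 Brn3a-list peaks, 42.3% (25.5% to 61.1%), were co-bound, against 32.7% and 25.6% of the whole lists. Among distal peaks alone the share was 12 of 27, 44.4% (27.6% to 62.7%), for the Runx3-list peaks of Ntrk2 and 33% for the list. Among distal Runx3-list peaks wider than 176 bp it was 11 of 21, 52.4%, at Ntrk2 and 46.7% of 7873 in the list. For the Brn3a list, whose peaks at Ntrk2 were all distal, the list-wide distal share was 20.2%. Among distal Brn3a-list peaks wider than 171 bp it was 9 of 15, 60%, at Ntrk2 and 31.8% of 13864 in the list. The co-bound Runx3-list peaks lay at -128.8, -125.2, -102.3 and -48.9 kb, at +39.0, +153.3, +158.3 and +286.3 kb, and at +422.0, +479.2, +481.0 and +481.3 kb. The last pair overlapped a single Brn3a-list peak of 492 bp, which is why 12 peaks made 11 regions. The overlaps were close, since the shared bases made up 81.8% to 100% of the narrower peak and the centres were 5 to 178 bp apart. Co-bound peaks of the list were as close. The nearest Brn3a-list centre lay a median of 33.25 bp away for these 12 Runx3-list peaks and 35 bp for all distal co-bound ones. A Runx3-list and a Brn3a-list peak near -111.9 kb missed each other, with centres 249.5 bp apart.

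Co-bound peaks of Ntrk2 were wider than the others. The Runx3-list peaks had a median width of 271.5 bp when co-bound and 189.5 bp when not, and the Brn3a-list peaks 354 and 146 bp. The same order held over all distal peaks of the lists, with 214 and 147 bp for Runx3 and 255 and 154 bp for Brn3a. An RBS was present in 10 of 12 co-bound and 14 of 16 other Runx3-list peaks of Ntrk2. In the distal list these shares were 59.2% and 68.2%.

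Sites of both kinds were found in most of the co-bound regions. As the deposited tables mark them, with the RBS counted within the Runx3-list peak and V$BRNF within the Brn3a-list peak, both were present in 7 of 11 regions, an RBS alone in 2, at -125.2 and +39.0 kb, V$BRNF alone in 1, at +158.3 kb, and neither in 1, at +479.2 kb. The region at +158.3 kb also held a TGTGGC, in the part of its Brn3a-list peak that lies outside the Runx3-list peak of 69 bp. Counted in the same way by Runx3-list peaks, both were present for 8 of 12, 66.7%, against 39.0% of 5736 co-bound distal Runx3-list peaks of the list. These peaks were not matched for width, and the co-bound peaks of Ntrk2 were wider. Their medians were 271.5 bp against 214 bp for Runx3 and 354 bp against 255 bp for Brn3a. The difference in share was not tested. The exact word TTAATGA was in 4 of the co-bound regions, taken over both peaks, and these are the windows shown above. At +153.3 kb it lies at position 81 and the single RBS at 189. At +286.3 kb it lies at 159, between RBS at 44 and 188. At +481.0 kb it lies at 73, between RBS at 1 and 103. At -128.8 kb it lies at 21 on the minus strand, and with the RUNX word at position 1 it falls within the Brn3a-list peak and just outside the Runx3-list peak, while the RUNX word at 197 is in both.

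The Brn3a-list peaks of Ntrk2 carried the Brn-family motif about as often as the rest of their list. V$BRNF was marked in 15 of 26 peaks, 57.7% (38.9% to 74.5%), against 54.2% of the whole list and 60.1% of its distal peaks. It was present in 8 of 11 co-bound and 7 of 15 other peaks, against 63.0% and 59.4% in the distal list. TTAATGA was found in 6 of 26 peaks, 23.1% (11.0% to 42.1%), against 10.6% of distal Brn3a-list peaks. These were 4 co-bound peaks and those at +55.4 and +107.2 kb, in introns 9 and 12. The Brn3a-list peaks had a median width of 242.5 bp at Ntrk2 (70 to 514 bp) and 170 bp over all distal peaks. Among distal peaks wider than the list median of 171 bp, V$BRNF was marked in 11 of 15, 73.3% (48.0% to 89.1%), at Ntrk2. In the list it was marked in 78.5% of 13864 such peaks. Per kb of distal Brn3a-list peak there were 0.95 TTAATGA at Ntrk2 and 0.58 in the list. RUNX words were present in 10 of 11 co-bound but 3 of 15 other Brn3a-list peaks of Ntrk2, against 58.6% and 26.7% in the distal list. A co-bound peak shares bases with a Runx3-list peak, so its RUNX words are largely those already counted there. Among the Runx3-list peaks TTAATGA was in 3 of 28, all co-bound, against 4.44% of distal Runx3-list peaks.

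**Figure D3:**
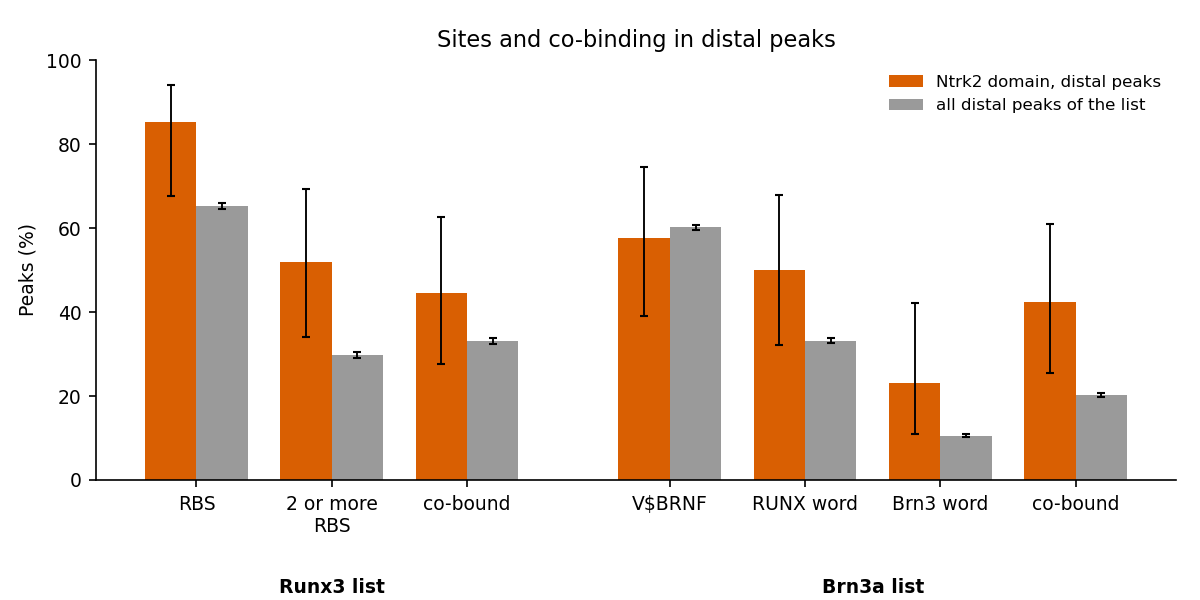
Bars give the percent of distal peaks with the named site or overlap, at Ntrk2 (orange, 27 Runx3-list and 26 Brn3a-list peaks) and in all distal peaks of the list (grey, 17369 and 28183), with Wilson 95% intervals as error bars. The interval of Ntrk2 lies above the grey bar for RBS, 2 or more RBS, the Brn3 word and the co-bound Brn3a-list peaks, and takes it in for the co-bound Runx3-list peaks, V$BRNF and the RUNX word. Peaks were not matched for width, and those of Ntrk2 were wider.

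Stretches with peaks of a single list lay between the co-bound regions. Between +481.3 and +622.0 kb, downstream of the gene, there were 6 Runx3-list peaks and no Brn3a-list peak, and all 6 had an RBS. They lay at +530.3, +553.6, +559.1, +561.2, +581.5 and +609.4 kb, with 2, 3, 1, 1, 2 and 1 RBS and widths of 157 to 384 bp. This stretch sits in the widest gap of the Brn3a list in the domain, 141 kb long, and its peaks are nearer to the TSS of Agtpbp1 than to that of Ntrk2. The opposite was seen within the gene. The widest gap of the Runx3 list, 114 kb from +39.0 to +153.3 kb, held 2 Brn3a-list peaks, at +55.4 and +107.2 kb, both with V$BRNF and a TTAATGA. Just past the end of the gene, between the Runx3-list peaks at +314.4 and +422.0 kb, 3 Brn3a-list peaks, at +338.0, +377.1 and +398.4 kb, stood without a Runx3-list peak, 2 of them with V$BRNF. Stretches were picked after their positions were seen and are a description.

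No peak of either list was made up mostly of repeats, which covered at most 34.1% of any Runx3-list peak of Ntrk2 and 27.2% of any Brn3a-list peak. The GC content had a median of 48.8% in the Runx3-list peaks of Ntrk2 and 51.5% in all distal peaks of the list, and of 49.0% and 48.1% for the Brn3a list.

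Among genes with domains of similar length, Ntrk2 stood near the top for Runx3. There were 456 protein-coding genes with a domain within 10% of its length, and their median was 4 Runx3-list peaks (quartiles 1 and 8). The 28 of Ntrk2 exceeded 99.8% of them, and the highest was 34. For Runx3-list peaks with an RBS it had the highest number, 24, against a median of 3 and a next highest of 23. Its 26 Brn3a-list peaks exceeded 92.3% of these genes, against a median of 8.5 and a highest of 44. Its 12 co-bound Runx3-list peaks exceeded 99.6%, against a median of 1 and a highest of 14. Over all 21938 gene records it was at rank 20 for Runx3-list, 173 for Brn3a-list and 21 for co-bound Runx3-list peaks, where 63%, 57.6% and 31.9% of genes had at least 1. By density its rank for the Runx3 list was 4250, since short domains can hold few peaks at a high density.

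**Figure D4:**
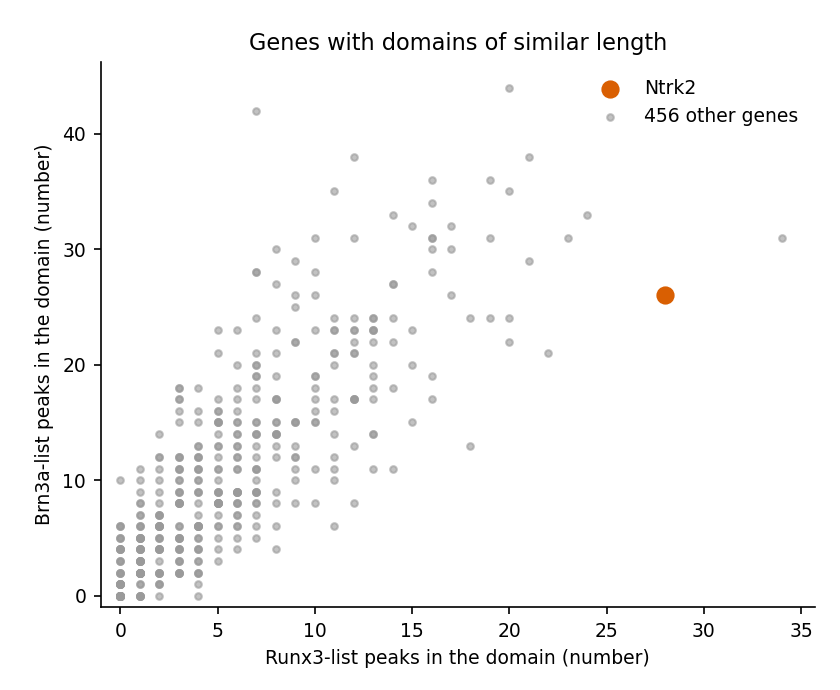
Each point is a gene, with the number of Runx3-list peaks (horizontal) and Brn3a-list peaks (vertical) in its domain. Ntrk2 (orange, 28 and 26 peaks) lies right of all but 1 of the 456 genes with a domain within 10% of its length (grey).

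The genes with numbers most like those of Ntrk2, by Euclidean distance over its Runx3-list, Brn3a-list and co-bound Runx3-list peaks, were Cryba4, Sdk1, Rbfox3, Zfp516 and Setd4. Cryba4, a lens crystallin gene, was the nearest, with 26 Runx3-list, 24 Brn3a-list and 10 co-bound peaks in 523 kb. Sdk1, a gene of a synaptic adhesion protein, had 26, 29 and 10 in 1236 kb, and Rbfox3, whose product is the neuronal antigen NeuN, had 26, 28 and 9 in 505 kb. Zfp516, a zinc finger gene, had 27, 29 and 9 in 1213 kb, and Setd4, a SET domain gene, had 26, 29 and 9 in 778 kb.

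Ntrk2 had more Runx3-list peaks than each of the other neurotrophin receptor genes given here. Its counts were 28 Runx3-list and 26 Brn3a-list peaks, against 13 and 24 at Ntrk3 (TrkC), in a domain of 1040 kb. Per 100 kb these were 2.90 and 2.70 at Ntrk2 and 1.25 and 2.31 at Ntrk3. Co-binding took in 12 of 28 Runx3-list peaks at Ntrk2, 42.9%, and 10 of 13 at Ntrk3, 76.9% (49.7% to 91.8%). Of the Brn3a-list peaks it took in a like share at both genes, 11 of 26 at Ntrk2, 42.3%, and 10 of 24 at Ntrk3, 41.7% (24.5% to 61.2%). An RBS was present in 24 of 28 at Ntrk2, 85.7%, and 9 of 13 at Ntrk3, 69.2% (42.4% to 87.3%), and 2 or more RBS in 15 of 28 and 3 of 13. V$BRNF was present in 15 of 26 Brn3a-list peaks at Ntrk2 and 19 of 24 at Ntrk3, 79.2% (59.5% to 90.8%). Each pair of intervals overlapped, and no difference between the genes was tested. Ngfr, the gene of the shared receptor p75, had 2 Runx3-list and 7 Brn3a-list peaks. The sortilin family of neurotrophin and proneurotrophin receptors had 2 and 0 at Sort1, 6 and 24 at Sorcs1, 3 and 7 at Sorcs2 and 6 and 18 at Sorcs3. Apart from Ntrk2, the Runx3 list reached the promoter of a single one of these receptor genes, Sort1.

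The ligand genes given here had fewer peaks than Ntrk2. Bdnf, which encodes the main TrkB ligand, had 2 Runx3-list peaks, both co-bound, and 8 Brn3a-list peaks over a domain of 600.1 kb. Ntf5, which encodes neurotrophin-4, the other TrkB ligand, had 1 Runx3-list peak in a domain of only 9.17 kb. Ntf3, which encodes the TrkC ligand, had 6 and 8 peaks of the Runx3 and Brn3a lists.

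Genes that act downstream of TrkB were looked up as a list. Of 26 genes of adaptors, kinases and other parts of TrkB signalling, 23 had a Runx3-list peak, 22 a Brn3a-list peak and 15 a co-bound peak, which is 88.5%, 84.6% and 57.7%, against 63%, 57.6% and 31.9% of all protein-coding genes. The median numbers of peaks were 3, 4.5 and 1, against 1, 1 and 0 over all genes. Their domains were longer too, with a median of 212 kb against 89.6 kb. Pik3r1, a regulatory subunit of PI3-kinase, had 21 Runx3-list, 34 Brn3a-list and 13 co-bound peaks, Dok5, an adaptor, 17, 37 and 10, and Nedd4l, a ubiquitin ligase, 12, 13 and 6. Of 15 genes known from low-threshold mechanoreceptors, 13 had a Runx3-list, 15 a Brn3a-list and 13 a co-bound peak, which is 86.7%, 100% and 86.7%, against the same shares of all genes. Their median domain, 388 kb, was again longer than that of all genes, 89.6 kb. The highest numbers of co-bound peaks among these were at the TF gene Maf, with 22, 36 and 7, at Ntng1, which encodes a netrin-G, with 8, 19 and 6, and at Gfra1, a receptor for GDNF, with 19, 36 and 5.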

How the data were processed

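The authors mapped CUT&RUN reads of E12.5 TrkC neurons, and the submitters' processing notes name cutadapt, Bowtie, MACS2 and the builds GRCm38 and mm10, which are the same assembly. Tool versions, peak-calling parameters and the role of the serum control are not given in the sources used here. What the authors deposited were consensus peak positions, RBS numbers and V$BRNF marks per list, with no score, count or value per library. The depth is unknown. Starts were read as 1-based, because RBS numbers then equalled word counts in all nuclear peaks. Left out were 2 mitochondrial Runx3-list peaks and the H3K27Ac table.

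Domains, promoters and introns were taken from GENCODE M21 with Python 3.11.15, numpy 2.4.6, pandas 2.3.3, scipy 1.17.1 (Wilson intervals) and matplotlib 3.10.9, and the code was tested on simulated data. Replicates were pooled before deposition, so no comparison was tested. The members, gene lists and alternatives were chosen with earlier results of these data known. Named genes were Ntrk2 and its neighbours, neurotrophins and their receptors (some are not reported here), the 3 genes of the other lists with most co-bound peaks, and the 5 genes nearest to Ntrk2 in peak numbers.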

Additional observations from a re-analysis of the deposited data

How the results depend on the processing

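Other settings changed how many peaks belonged to Ntrk2 and left most shares in place. Under the alternatives, 31 values were counted as unchanged and 11 as moved. A share was unchanged within its interval, and a count within 1.5 times the reported count. Percentiles have no interval here, and for each list 2 were counted as unchanged and 1 as moved. The repeat limit of 60% removed no peak and the rule of 50% shared bases removed no overlap. Values under these 2 settings could thus not move. With the gene body only there were 9 Runx3-list and 8 Brn3a-list peaks, and 4 of the Runx3-list peaks were co-bound. Of these 9 Runx3-list peaks, 66.7% had an RBS, against 65.2% of all distal Runx3-list peaks. With peaks nearest to the Ntrk2 TSS there were 12 Runx3-list and 12 Brn3a-list peaks, with 5 of the Runx3-list peaks co-bound. With peaks above the median width of each list, 15 Brn3a-list peaks were left, and the Runx3-list number exceeded 100% of genes with domains of similar length. With an extension of at most 500 kb, the Brn3a-list number exceeded 96.3% of them. TTAATGA in place of V$BRNF gave 23.1% of Brn3a-list peaks. No paired analysis was possible because the deposited lists are pooled over replicates, and leaving out a replicate could not be run for the same reason. Peaks could not be weighed by height, since the lists carry no scores.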
